A study of Mus musculus with 6 samples.

Results

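The 9 genes described here belong to the complement system and were measured in inguinal white adipose tissue (iWAT) of cold-acclimated mice. They encode the 3 chains of C1q (C1qa, C1qb and C1qc), complement components C2, C3 and C4b, complement factor B (Cfb), complement factor D or adipsin (Cfd) and the C3a receptor (C3ar1). The genes were chosen by name for their role in complement, and all 9 were among the 16538 genes listed in the processed RNA-Seq data. The choice allows a comparison of genes typical of adipocytes (Cfd), stromal cells (C3 and C4b) and macrophages (C1q) within the same tissue.

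RNA-Seq was performed on iWAT of 3 control samples and 3 samples from AKO mice, each made of RNA pooled from 2 mice of the same genotype. The labels call the control mice wt, and the paper describes them as fl/fl littermates. AKO mice lack NRG4, a hormone secreted by fat, in adipocytes through Cre driven by the adiponectin promoter, so the deletion is directed to adipocytes and not to the other cells of the depot. Both groups had spent 10 days at 8°C by the labels, and the age and sex of the mice are not given in the sources used here. The question is how adipocyte Nrg4 loss bears on beige fat during cold acclimation. Nothing states how the mice were divided among pools beyond genotype, and p-values measure the spread between these pools.

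Values are read counts divided by a size factor for each library, and are called normalized counts. Between 17570335 and 18373707 reads per library fell on listed genes. The targeted gene Nrg4 measured 3128, 3102 and 3092 normalized counts in control samples and 2577, 2627 and 2691 in AKO samples (log2 fold change -0.24, adjusted p = 0.298 by limma). Its groups did not overlap, but most of the signal over the gene remained, and reads of the deleted part were not counted separately. By qPCR the paper found almost no Nrg4 mRNA in iWAT of AKO mice. Ucp1, the uncoupling protein of thermogenic fat, measured 18058, 25393 and 16827 in control samples and 5401, 4836 and 7801 in AKO samples (log2 fold change -1.75, adjusted p = 0.0703 by limma). Ucp1 passed the threshold in DESeq2 (adjusted p = 1.97e-06) and in limma on genes with at least 10 in every sample (adjusted p = 0.0246). Markers of other tissues varied between libraries. The summed value of 10 B and T lymphocyte markers was 1185 in control replicate 1 and 1690 in AKO replicate 2, against 233 to 296 in the other 4 samples. The summed value of 12 skeletal muscle markers ran from 168 to 26001 in control samples and from 19082 to 111926 in AKO samples. The part of either cell type in the complement values was not tested.

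Complement is a cascade of plasma and tissue proteins that tags particles for removal and attracts immune cells. C1q starts the classical pathway by binding immune complexes or dying cells, C4b and C2 then form the enzyme that cleaves C3, and in the alternative pathway factor D cleaves factor B to build another such enzyme. Adipose tissue is a main site of factor D synthesis, and adipocytes, fibroblasts and macrophages are known to make different components of the cascade.

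The 9 genes spanned a wide range of levels. Per kilobase of exon, which allows genes to be compared, Cfd reached 160951 ± 9655 normalized counts per kb in control samples and 149756 ± 24535 in AKO samples (SD, n = 3 each), and ranked 2nd of 15866 genes with a known exon length. C3, the central component, followed at 4906 ± 674 and 5008 ± 706 per kb. C3ar1, a receptor found on myeloid cells, was the lowest at 66.8 ± 11.3 and 83.4 ± 12.5 per kb. Across the 6 samples the order of mean level per kb was Cfd, C3, C1qa, C1qb, Cfb, C4b, C1qc, C2 and C3ar1. Cfd lay 31.3-fold above C3 and C3 lay 2.13-fold above C1qa, with no overlap of their ranges in either case. C1qc lay 2.43-fold above C2 and C2 lay 5.30-fold above C3ar1, also without overlap. The neighbors from C1qa to C1qc had overlapping ranges, and Cfb and C4b differed by 1.01-fold, with Cfb the higher in 4 of 6 samples.

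**Figure D1:**
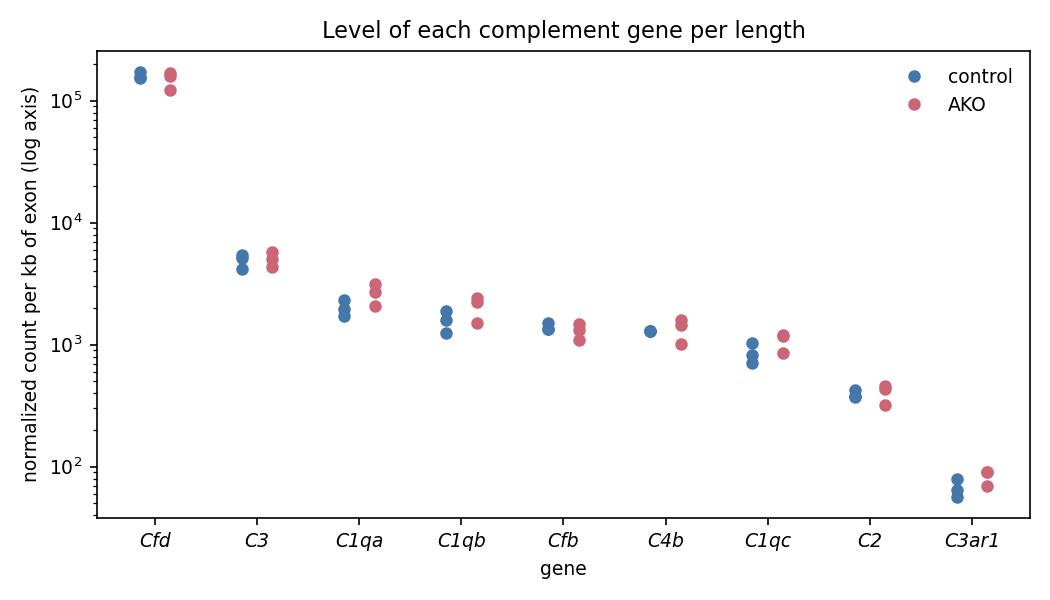
Normalized counts per kb of exon (log axis) of the 9 complement genes in each control and AKO sample. Cfd stands 31.3-fold above C3, and the points of both groups overlap in every gene.

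None of the 9 genes passed the test across all genes (limma, adjusted p from 0.539 to 0.985), where 2 of 13855 genes or 0.0144% passed. At an unadjusted p under 0.05 in limma, 1 of the 9 (C1qa) passed, against 9.1% of all tested genes. In each of the 9 genes the ranges of the groups overlapped, whereas 6.14% of all tested genes had all AKO samples above all control samples and 8.31% had them below. The log2 fold change was positive in 7 of the 9 genes and in 51.9% of all tested genes. The median over the 9 genes was 0.03, against 0.01 over all tested genes. DESeq2 on reads recovered from the values called none of the 9, where 149 of 14923 genes or 0.998% passed, and edgeR called none, where 0.0216% passed. These are bulk samples, so fewer cells of a type and less RNA per cell cannot be told apart.

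The C1q chains are made mainly by macrophages and related myeloid cells, and 3 polypeptides encoded by neighboring genes assemble into the protein. The genes lie side by side on the minus strand of chromosome 4 (GRCm38), with C1qb at 136880129 to 136886187, C1qc at 136889804 to 136893065 and C1qa at 136895917 to 136898803, within 18675 bases. Promoter windows were found for 5 of the 9 genes in the RefSeq table for GRCm38.p6 (C1qb, C1qc, C3, Cfd and C3ar1) and not for C1qa, C2, C4b and Cfb. The bases upstream of C1qb (chr4:136886201-136886450, minus strand) and C1qc (chr4:136893066-136893164, minus strand) are shown 5′ to 3′ because these genes varied together, with matches to the searched motifs in capitals.
C1qb: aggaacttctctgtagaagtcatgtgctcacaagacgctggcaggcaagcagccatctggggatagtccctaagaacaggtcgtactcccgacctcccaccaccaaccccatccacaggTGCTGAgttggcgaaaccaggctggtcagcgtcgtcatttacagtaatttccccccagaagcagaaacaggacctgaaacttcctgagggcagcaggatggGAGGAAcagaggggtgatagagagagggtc
C1qc: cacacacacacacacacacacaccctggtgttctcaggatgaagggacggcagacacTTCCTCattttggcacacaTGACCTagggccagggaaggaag
A search on both strands covered 5 motifs. The core of PU.1-type ETS sites was searched as GAGGAA. The half-site of Maf factors, which act in macrophages, was searched as TGCTGA. A pattern for sites of C/EBP factors, which act in adipocytes and myeloid cells, was searched as TTGCNNAA. A half-site of nuclear receptors was searched with the letters AGGTCA. The TATA box was searched with the letters TATAAA, which occur in 12.4% of windows. In C1qb, TGCTGA began 131 bases and GAGGAA 30 bases upstream of the start. In C1qc, the reverse complements of GAGGAA and AGGTCA lay 193 and 174 bases upstream of the RefSeq start. Of the 250 bases searched for C1qc, the 151 nearest the RefSeq start lie within the gene position given above and are not shown. GAGGAA occurs in 23.3% of 32851 promoter windows of 250 bases, TGCTGA in 16.1% and AGGTCA in 14%, so that single matches are frequent, and a match describes letters and not a bound site.

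The 3 C1q chains had their highest values in AKO replicates 1 and 3. C1qa measured 1784, 2053 and 2402 normalized counts in control samples and 2837, 2140 and 3274 in AKO samples. The AKO mean was 1.32-fold the control mean, 2750 ± 572 against 2080 ± 310 (SD, n = 3 each), with a log2 fold change of 0.39 (SE 0.16, 95% interval 0.01 to 0.77). The unadjusted p of limma was 0.0443 and the adjusted p 0.539, and 4.41% of all tested genes were higher in AKO samples at an unadjusted p under 0.05. By a 2-sided exact permutation test p was 0.2, where 0.1 is the smallest p that 3 samples against 3 allow.

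C1qb measured 1361, 1738 and 2059 in control samples and 2443, 1651 and 2644 in AKO samples. Its AKO mean was 1.31-fold the control mean (log2 fold change 0.38, SE 0.20, adjusted p = 0.623 by limma). C1qc measured 1359, 1601 and 2009 in control samples and 2275, 1636 and 2338 in AKO samples, with an AKO mean 1.26-fold the control mean (log2 fold change 0.33, SE 0.17, adjusted p = 0.617 by limma). In all 3 chains AKO replicates 1 and 3 exceeded every control sample and AKO replicate 2 lay within the control range. DESeq2 gave unadjusted p-values of 0.00601 for C1qa, 0.0224 for C1qb and 0.0320 for C1qc, and adjusted p-values of 0.255, 0.506 and 0.596. By DESeq2 2.97% of all genes were higher in AKO samples at an unadjusted p under 0.05.

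The chains kept close proportions across samples. The level of C1qb per kb was 0.729 to 0.823 of that of C1qa, and the level of C1qc was 0.385 to 0.450 of it. Over the 6 samples the log2 values of C1qa correlated with those of C1qb at r = 0.981 and with those of C1qc at r = 0.971, a description of 6 points that share the same libraries.

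C3ar1 encodes the receptor through which the C3a fragment acts on macrophages and other myeloid cells, and lies on chromosome 6 at 122847138 to 122856161 (minus strand). It measured 245, 277 and 341 normalized counts in control samples and 389, 297 and 391 in AKO samples. As for C1q, AKO replicates 1 and 3 lay above every control sample and AKO replicate 2 among them. The AKO mean was 1.25-fold the control mean, 359 ± 53.9 against 288 ± 48.6 (SD, n = 3 each, log2 fold change 0.32, SE 0.15, adjusted p = 0.583 by limma).

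**Figure D2:**
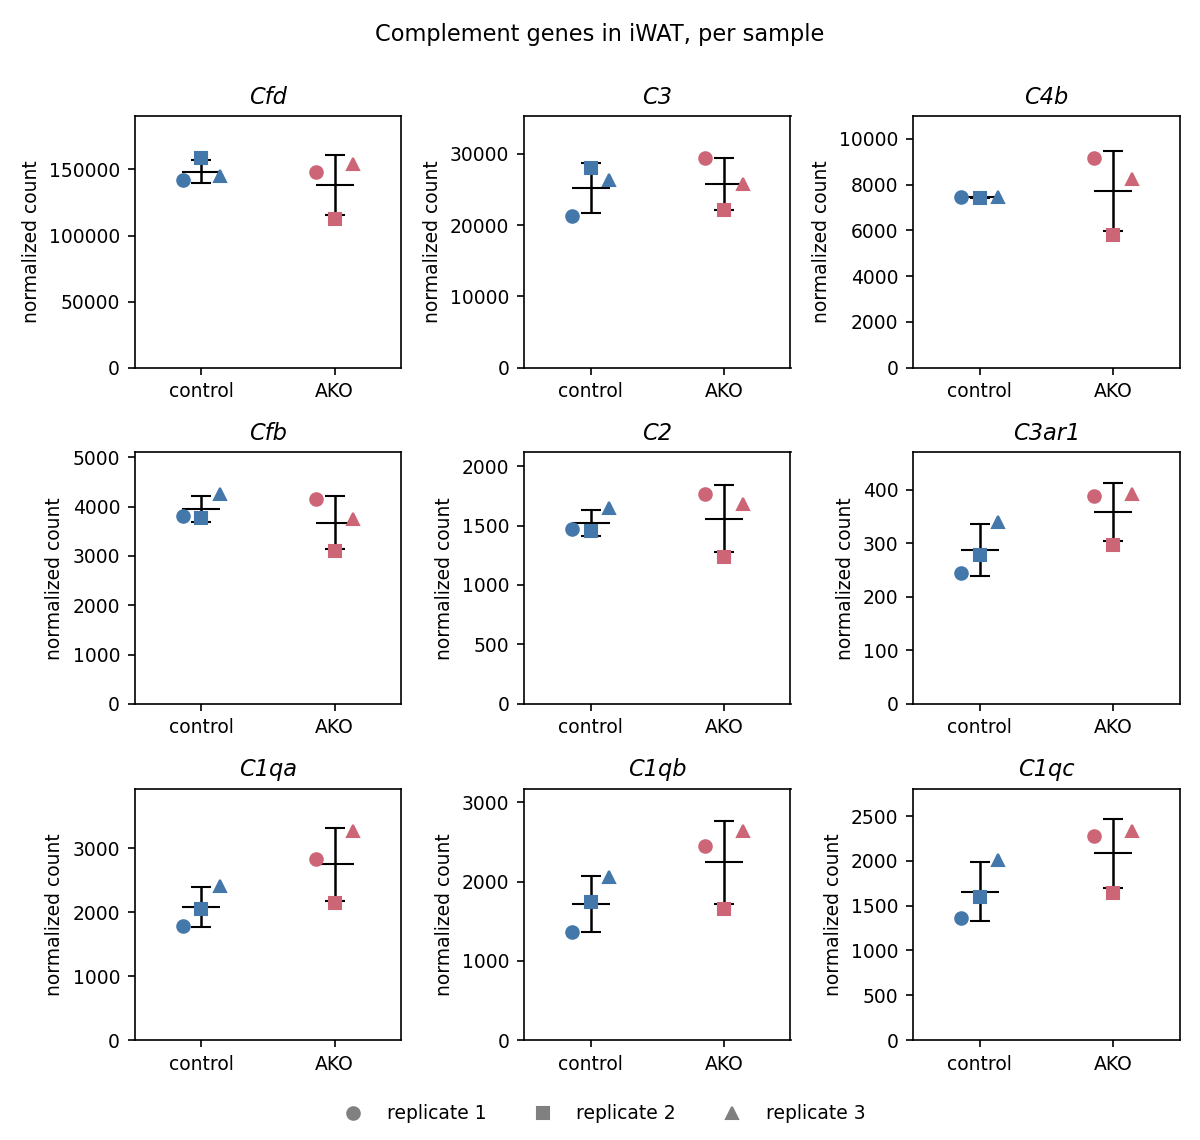
Normalized counts of each complement gene in the 3 control and 3 AKO samples, with group means and SD bars. In the C1q chains and C3ar1, AKO replicates 1 and 3 lie above every control sample, and AKO replicate 2 is the lowest AKO sample in all 9 genes.

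C3 and C4b carry the reactive thioester with which complement attaches to surfaces, and in fat they are typical of fibroblast-like stromal cells. C3 lies on chromosome 17 at 57203970 to 57228136 (minus strand) and C4b on the same chromosome at 34728380 to 34743882 (minus strand). The 250 bases upstream of C3 (chr17:57228137-57228386, minus strand) are shown because the C/EBP pattern, recorded in this gene alone among the 5 windows, lay near its start.
C3: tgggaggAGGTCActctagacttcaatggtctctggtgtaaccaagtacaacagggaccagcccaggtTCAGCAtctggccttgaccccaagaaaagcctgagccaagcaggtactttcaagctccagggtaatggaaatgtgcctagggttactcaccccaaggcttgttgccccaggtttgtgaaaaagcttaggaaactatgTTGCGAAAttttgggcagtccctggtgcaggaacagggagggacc
The C/EBP pattern began 45 bases upstream of the start and occurs in 9.56% of the promoter windows. AGGTCA began 243 bases upstream and the reverse complement of TGCTGA 182 bases upstream.

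C3 measured 21338, 27972 and 26391 normalized counts in control samples and 29400, 22133 and 25743 in AKO samples. The groups covered nearly the same range, with means of 25233 ± 3465 and 25759 ± 3634 (SD, n = 3 each). The log2 fold change was 0.03 (SE 0.14, 95% interval -0.29 to 0.34, adjusted p = 0.973 by limma). The interval holds the differences compatible with these samples.

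C4b measured 7444, 7438 and 7442 in control samples and 9159, 5792 and 8263 in AKO samples. The SD of the control samples, 2.87, was far below the counting error of 87.6 expected at that level, so it understates their error. The AKO samples lay on both sides of the controls (log2 fold change 0.03, SE 0.15, adjusted p = 0.976 by limma). C4b has a near-identical copy, C4a, which was listed at 3.23 to 15.2 normalized counts, and 15.2% of 5773 windows of 100 bases in C4b occur unchanged in C4a. The C4b value is uncertain to the extent that the counting divided reads between them.

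C2 and Cfb encode the related proteases that complete the C3-cleaving enzymes of the classical and the alternative pathway. They are neighbors on chromosome 17 (minus strand), with Cfb at 34856374 to 34862518 and C2 at 34862604 to 34898265, 85 bases apart. Cfb measured 3808, 3775 and 4249 normalized counts in control samples and 4166, 3097 and 3751 in AKO samples (log2 fold change -0.11, SE 0.11, adjusted p = 0.824 by limma). C2 measured 1472, 1452 and 1648 in control samples and 1762, 1236 and 1678 in AKO samples (log2 fold change 0.02, SE 0.13, adjusted p = 0.985 by limma). In both genes AKO replicate 2 was the lowest of the 6 samples. For Cfb, AKO replicate 3 also lay below every control sample and AKO replicate 1 within their range, whereas for C2 the other AKO samples lay above every control sample. In GENCODE M21 a read-through gene on the same strand, Gm20547, covers 79.5% of the exonic bases of Cfb and 42.8% of those of C2, and Zbtb12 on the opposite strand covers 4.16% of those of C2. Whether reads were counted by strand is not given in the sources used here, so both values are uncertain at the shared exons.

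Cfd, the adipocyte member of the group, encodes the protease that activates factor B and lies on chromosome 10 at 79890853 to 79892655 (plus strand). The 250 bases upstream (chr10:79890603-79890852, plus strand) are shown because this window held none of the 5 motifs.
Cfd: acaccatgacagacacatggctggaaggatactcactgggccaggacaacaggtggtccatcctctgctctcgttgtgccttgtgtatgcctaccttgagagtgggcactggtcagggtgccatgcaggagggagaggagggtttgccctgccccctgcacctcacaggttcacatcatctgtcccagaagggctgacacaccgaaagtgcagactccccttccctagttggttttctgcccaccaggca
The absence says only that these letters do not occur in the window.

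Cfd measured 141705, 158500 and 144985 normalized counts in control samples and 147885, 112205 and 154135 in AKO samples. AKO replicates 1 and 3 lay within the control range, and AKO replicate 2 was the lowest of the 6 samples. The means were 148397 ± 8902 and 138075 ± 22621 (SD, n = 3 each), with a log2 fold change of -0.12 (SE 0.15, 95% interval -0.47 to 0.23) and an adjusted p of 0.877 by limma. The same samples differed without overlap in Ucp1, the beige adipocyte marker. Cfd took 0.639% to 0.876% of the reads of a library, and the 9 genes together 0.855% to 1.15%.

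The marker genes of the 3 cell types gave a scale for these values. Of 12 macrophage markers, led by Lyz2 and Csf1r, none passed the test in limma (4 were higher at an unadjusted p under 0.05, against 4.41% of all tested genes), with a median log2 fold change of 0.35 and a positive value in 12 of 12. The 12 stromal markers, led by Col3a1 and Col1a1, had a median of 0.29, likewise positive in 12 of 12. None passed in limma (4 higher at an unadjusted p under 0.05, against the same 4.41%). DESeq2 called 1 of the 12 (Dpp4, higher), against 0.998% of all genes. Among 12 adipocyte markers, led by Car3 and Fabp4, the median was -0.11, with 2 positive and 10 negative, and none passed, also at an unadjusted p under 0.05. Summed normalized counts of the macrophage markers ran from 8169 to 11462 in control samples and from 10225 to 13157 in AKO samples. The stromal sums ran from 84509 to 122606 in control samples and from 101702 to 137715 in AKO samples. The adipocyte sums ran from 1004368 to 1055717 in control samples and from 838781 to 987303 in AKO samples, without overlap.

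Relative to macrophage markers the C1q genes differed less between groups than in their own level. The summed level of the 3 chains per kb, divided by that of the macrophage list, was 0.993, 1.07 and 1.004 in control samples and 1.04, 0.951 and 1.14 in AKO samples. The means were 1.02 ± 0.0406 and 1.04 ± 0.0922 (SD, n = 3 each), a log2 difference of 0.03 where C1qa itself differed by 0.39. C3ar1 divided by the macrophage list gave ratios of 0.0154, 0.0156 and 0.0152 in control samples and 0.0153, 0.0148 and 0.0152 in AKO samples. Its highest ratio was 1.06-fold its lowest, whereas C3ar1 itself varied over a 1.60-fold range. No test was made of these ratios. The list sums weigh their highest genes most. Per kb over the 6 samples these were Lyz2 (2195), Col3a1 (3802) and Car3 (122190) for the macrophage, stromal and adipocyte lists.

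C3 and C4b had lower mean ratios to stromal markers in AKO samples. C3 divided by the stromal list per kb was 0.347, 0.377 and 0.301 in control samples and 0.297, 0.301 and 0.280 in AKO samples. The AKO mean was 0.857 of the control mean, a log2 difference of -0.22, and the nearest samples of the groups were both at 0.301. Per kb the groups met without overlapping, and without division by length they overlapped. No test was made. C4b divided by the stromal list was 0.109, 0.0905 and 0.0767 in control samples and 0.0837, 0.0710 and 0.0813 in AKO samples, an overlap with an AKO mean 0.854 of the control mean. C4b relative to C3 ranged from 0.236 to 0.315 over the 6 samples.

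Cfd relative to adipocyte markers overlapped between the groups. The ratio per kb was 0.507, 0.589 and 0.504 in control samples and 0.555, 0.500 and 0.586 in AKO samples. The means were 0.533 ± 0.0482 and 0.547 ± 0.0438 (SD, n = 3 each), a log2 difference of 0.04.

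**Figure D3:**
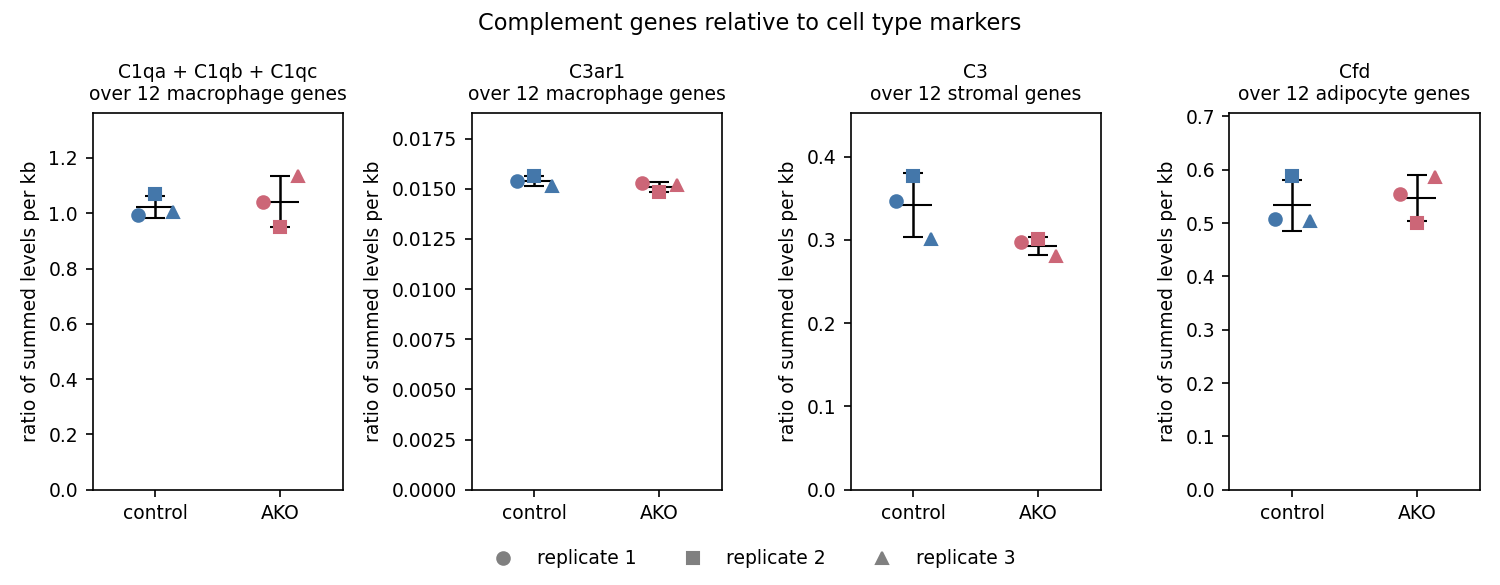
Level per kb of complement genes divided by the summed level of marker genes of their cell type, for each control and AKO sample. The C1q and Cfd ratios overlap between groups, and the C3 ratio averages 0.342 in control samples and 0.293 in AKO samples.

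AKO replicate 2 was the lowest AKO sample in 9 of 9 genes, as in 35.3% of all tested genes, and the lowest of all 6 samples in 4 of them (C2, C4b, Cfb and Cfd). Its values were 0.649 to 0.803 of the mean of the other AKO samples, where the median of all tested genes was 0.998. In the remaining 5 genes the lowest sample was control replicate 1. These samples are the ones with high lymphocyte markers. AKO replicate 2 also had the highest sum of mammary epithelial markers (2000, against 26.9 to 1510 elsewhere) and of neutrophil markers (123, against 11.6 to 36.5). The part of these cells in the complement values of both samples was not tested. Without both samples the log2 fold change was 0.46 for C1qa, 0.43 for C1qb, 0.36 for C1qc, 0.34 for C3ar1, 0.23 for C4b, 0.15 for C2, 0.02 for C3, -0.02 for Cfb and -0.01 for Cfd, and none of the 9 genes passed the test in limma.

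The other genes of the pathway were taken from a list of 49, of which 40 were listed in the data and 33 reached a mean of 10. None passed the test in limma (adjusted p from 0.467 to 0.969), DESeq2 or edgeR. Their median log2 fold change was 0.16, with 22 positive and 11 negative. At an unadjusted p under 0.05 in limma, 2 were higher in AKO samples (Colec12 and Itgb2) and 1 was lower (C1qbp), against 4.41% and 4.69% of all tested genes.

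Among genes of classical and lectin initiation, 8 were tested, with a median log2 fold change of 0.18. C1s1, a protease of the C1 complex, averaged 3556 normalized counts in control samples and 4063 in AKO samples (log2 fold change 0.18, adjusted p = 0.677 by limma). Its partner protease C1ra averaged 1091 and 1231 (log2 fold change 0.17, adjusted p = 0.755 by limma). Fcna, a ficolin of the lectin pathway, averaged 436 and 620 (log2 fold change 0.50, SE 0.27, adjusted p = 0.636 by limma). Colec12, a scavenger receptor with a collectin domain, measured 284, 244 and 292 in control samples and 397, 311 and 330 in AKO samples. All its AKO samples lay above all control samples, as in 1 of the 33 tested pathway genes and 6.14% of all tested genes (log2 fold change 0.34, SE 0.12, adjusted p = 0.498 by limma).

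Positive and negative regulators in the fluid phase were also measured. The properdin gene Cfp, whose product stabilizes the alternative pathway enzyme, averaged 886 and 1064 (log2 fold change 0.25, adjusted p = 0.722 by limma). The 4 tested fluid-phase inhibitors all had positive log2 fold changes, with a median of 0.30. Serping1, which inhibits the C1 proteases, averaged 5950 and 7336 (log2 fold change 0.29, SE 0.17, adjusted p = 0.647 by limma). Clu, encoding clusterin, measured 969, 497 and 678 in control samples and 629, 1669 and 712 in AKO samples, with the highest value in AKO replicate 2.

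Terminal components and membrane inhibitors had medians of 0.30 over 3 genes and -0.01 over 6 genes. C7, part of the membrane attack complex, had a log2 fold change of 0.30 (adjusted p = 0.780 by limma). The 11 receptors had a median of 0.03, with 7 positive and 4 negative. Itgam, a chain of complement receptor 3, averaged 482 and 637 (log2 fold change 0.40, adjusted p = 0.601 by limma), and C5ar1, the C5a receptor, had a log2 fold change of 0.20. C1qbp, named for C1q binding and found mostly in mitochondria, measured 1334, 1492 and 1398 in control samples and 1194, 1257 and 1217 in AKO samples. All its AKO samples lay below all control samples, as in 1 of the 33 tested pathway genes and 8.31% of all tested genes (log2 fold change -0.20, SE 0.07, adjusted p = 0.467 by limma). Cr2, a B cell receptor for C3 fragments, measured 104, 6.45 and 11.2 in control samples and 4.80, 91.8 and 2.89 in AKO samples. Its high samples are those with high lymphocyte markers.

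**Figure D4:**
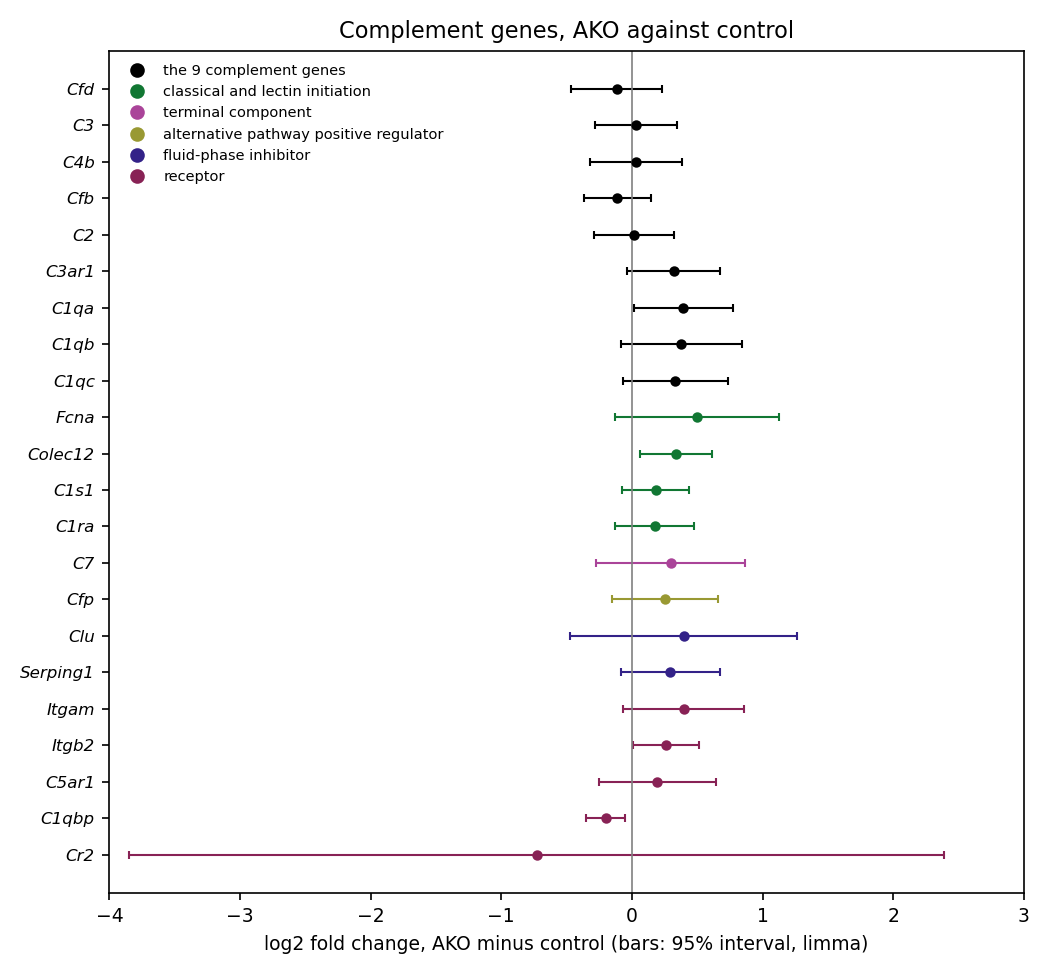
Log2 fold change (AKO against control) with 95% intervals for the 9 complement genes and the other pathway genes named in the text. None has an adjusted p under 0.05, and the C1q chains and C3ar1 lie between 0.32 and 0.39.

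The genes whose pattern over the 6 samples was most like that of a member were found among 13846 genes by the correlation of log2 values. For Cfd they were Insc (r = 0.990), Tpcn1 (r = 0.985) and Col13a1 (r = 0.982). For C3 they were Sez6l2 (r = 0.991), Lag3 (r = 0.989) and Fbln7 (r = 0.979). For C1qa they were AI607873 (r = 0.995), Rnase4 (r = 0.992) and Cygb (r = 0.990). Among the members, C1qa correlated with C3ar1 at r = 0.970, Cfd with C4b at r = 0.805 and Cfd with C1qa at r = 0.312. With 6 points that share a library each and so many genes compared, these values are descriptions.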

How the data were processed

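Bulk RNA-Seq of 6 iWAT samples (3 control, 3 AKO) was analysed. The labels give the cold exposure used here, and the paper's text gives a slightly longer one. The authors aligned reads with STAR to GRCm38.p6 (mm10), counted them per gene with featureCounts and used DESeq2; strandedness is not given in the sources used here. The values the authors deposited are a signal, each gene's read count over the size factor of its library. Columns with the authors' own comparison (log2 fold changes, p-values and other adjusted p-values) were deposited too and were not used. The filter that selected the 16538 listed genes is not given in the sources used here.

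The 9 members and the lists were chosen with earlier results of these data known. Named genes were the members, tested pathway genes, the 2 highest genes of each marker list cited, the 3 most correlated genes of Cfd, C3 and C1qa, Nrg4 and Ucp1; Dpp4 was named after its value was seen. One item is not reported here. Lists of endothelial (median log2 fold change -0.05), mammary epithelial (1.22), beige (-1.06) and neutrophil markers (2 of 6 tested) and lymphocyte (0.16) and muscle markers (3.88) were also computed. Of the 8 beige markers, 1 was called lower in limma and 6 in DESeq2. Over all genes limma called 1 of 13855 lower and DESeq2 113 of 14923.

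Because the values were normalized, limma 3.58.1 (R 4.3.3, variance trend) was fitted to log2(value + 1) over 13855 genes with a mean of at least 10, without covariates, with Benjamini-Hochberg adjustment over all of them and a threshold of 0.05. Fold changes are on that scale. The worth of 1 read could be read from the steps between values, 1.0035, 1.08 and 1.02 in control samples and 0.960, 0.976 and 0.964 in AKO samples; 100% of values were then within 0.001 of a whole read. Recovered reads were tested with edgeR 4.0.16, which called 3 genes, and DESeq2 1.42.0, which called 149. No samples of a group were duplicates by counts (chi-square over degrees of freedom 10.4 to 21.2). Positions and exon lengths came from GENCODE M21 (GRCm38), an earlier release than that named by the authors. Scripts were tested on simulated data. Alternatives were other pseudocounts, filters, scalings and tools, a replicate block and leaving out samples. Leaving out control replicate 1 together with AKO replicate 2 was chosen after seeing the data.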

Additional observations from a re-analysis of the deposited data

How the results depend on the processing

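None of the 9 genes, and none of the other complement genes, passed the threshold under any of 17 alternatives. The lowest adjusted p of a member was 0.255, for C1qa with DESeq2. C1qa, C1qb, C1qc and C3ar1 stayed positive in all 17, with log2 fold changes of 0.26 to 0.56, 0.22 to 0.58, 0.20 to 0.50 and 0.21 to 0.45 when single samples were left out.

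Several signs turned when 1 sample was left out. C2 was -0.01 without control replicate 1, -0.02 without control replicate 2, -0.08 without AKO replicate 1 and -0.04 without AKO replicate 3 (range -0.08 to 0.18). C3 was -0.09 without control replicate 1 and -0.07 without AKO replicate 1 (range -0.09 to 0.13), and C4b -0.11 without AKO replicate 1 and -0.03 without AKO replicate 3 (range -0.11 to 0.23). Without AKO replicate 2, Cfb was 0.01 (range -0.21 to 0.01), Cfd 0.03 (range -0.20 to 0.03) and Clu -0.04 (range -0.04 to 0.66). Cr2 was 0.43 without control replicate 1 and 0.13 without AKO replicate 3 (range -2.16 to 0.43). The other named pathway genes kept their sign. Their ranges were 0.11 to 0.31 for C1s1, 0.08 to 0.29 for C1ra, 0.25 to 0.77 for Fcna and 0.23 to 0.41 for Colec12. For Cfp the range was 0.12 to 0.44, for Serping1 0.16 to 0.46 and for C7 0.09 to 0.53. It was 0.26 to 0.59 for Itgam, 0.05 to 0.39 for C5ar1, 0.18 to 0.35 for Itgb2 and -0.24 to -0.16 for C1qbp.

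Over all genes limma called 2. The count was 6 with at least 10 in every sample, 5 with edgeR and RLE factors, 149 with DESeq2, 0 without control replicate 1 and AKO replicate 2 together, and 0 to 3 when single samples were left out. The cause was not tested. With the replicate number as a block limma called 2, both higher in AKO samples, where the main fit called 1 lower and 1 higher. The deviations of same-numbered samples correlated at 0.136, -0.352 and 0.240, and those of other-numbered samples at -0.500 to 0.335. These values do not show whether the numbers pair the samples. The intervals of the single genes set what 3 pools a group can show.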
